A study of Macaca mulatta with 136 samples.

Results

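The EphB receptors and their transmembrane ligands, the ephrin-Bs, were followed through the neural retina and the RPE/choroid of the rhesus macaque eye. The genes were taken by symbol, and 8 of the 19422 gene identifiers in the deposited tables carry these names: the receptors EPHB1, EPHB2, EPHB3, EPHB4 and EPHB6 and the ligands EFNB1, EFNB2 and EFNB3. Each symbol had a single entry, and all 8 passed the filter on low counts in every comparison.

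EphB receptors are receptor tyrosine kinases on the cell surface, and ephrin-Bs are anchored in the membrane of the neighbouring cell, so that contact sends a signal into both cells. EphB6 is the exception among the receptors, because its kinase domain is inactive. In the developing retina, EphB receptors are graded toward the ventral and ephrin-Bs toward the dorsal side, and these gradients guide the axons of retinal ganglion cells. In blood vessels, ephrin-B2 marks arterial and EphB4 venous endothelium.

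RNA had been taken from punches 2 mm wide from postmortem eyes of 2 adult monkeys, RM03 and RM04, one aged 13 and the other 18 years, and the labels do not say which. Each of the 4 eyes gave neural retina and RPE/choroid from the fovea/macula (called fovea here), the perimacula, a nasal location and the periphery (temporal in the protocol), which makes 32 libraries in 8 groups of 4 eyes. The study asked how expression differs between central and peripheral locations in each layer, and which ligands and receptors change together across the apposed layers. Fellow eyes share an animal, so p-values measure the spread between these eyes more than the spread between monkeys.

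Libraries held between 42448891 and 78574034 estimated counts. Libraries of the fovea, perimacula and nasal location were run on 5 lanes of 2 flow cells and those of the periphery on 2 lanes of another flow cell, so the periphery and its flow cell cannot be told apart. The layers carried their own markers: summed over 8 rod genes, retina libraries held 3660 to 24500 CPM and RPE/choroid libraries 48.4 to 826, while the 5 RPE genes summed to 211 to 1200 CPM in retina and to 2680 to 16900 in RPE/choroid. In RPE/choroid, 3 libraries, each from RM03, stood apart. Summed over 5 Schwann cell genes, the right perimacula held 10600 CPM, the right periphery 5600 and the left periphery 15900, against 343 to 2730 CPM in the other 13 libraries. Results that rest on these 3 libraries are given with and without them. Leaving them out keeps only the eyes of RM04 at the RPE/choroid periphery. In changes seen there without them, Schwann cell content, the number of eyes and the animal cannot be told apart.

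Levels are TMM-normalized CPM, estimated counts scaled to a common library size, and eyes are listed in the order RM03 right, RM03 left, RM04 right, RM04 left. Levels of different genes were not compared with each other, because CPM is not corrected for transcript length. Differences were tested with edgeR's quasi-likelihood test, and a gene was called when its Benjamini-Hochberg adjusted p over all genes tested was under 0.05. A log2 fold change is positive where the first-named group is higher and is given with its standard error (SE).

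The strongest contrast for most of these genes lay between the layers. EPHB4, EPHB3, EFNB1 and EFNB2 were higher in RPE/choroid at every location, EPHB2 was higher in retina at every location, and EPHB6 was higher in retina at 3 of 4. EPHB1 changed sides, being the higher in retina at the fovea and the higher in RPE/choroid at the periphery. EFNB3 differed least.

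**Figure D1:**
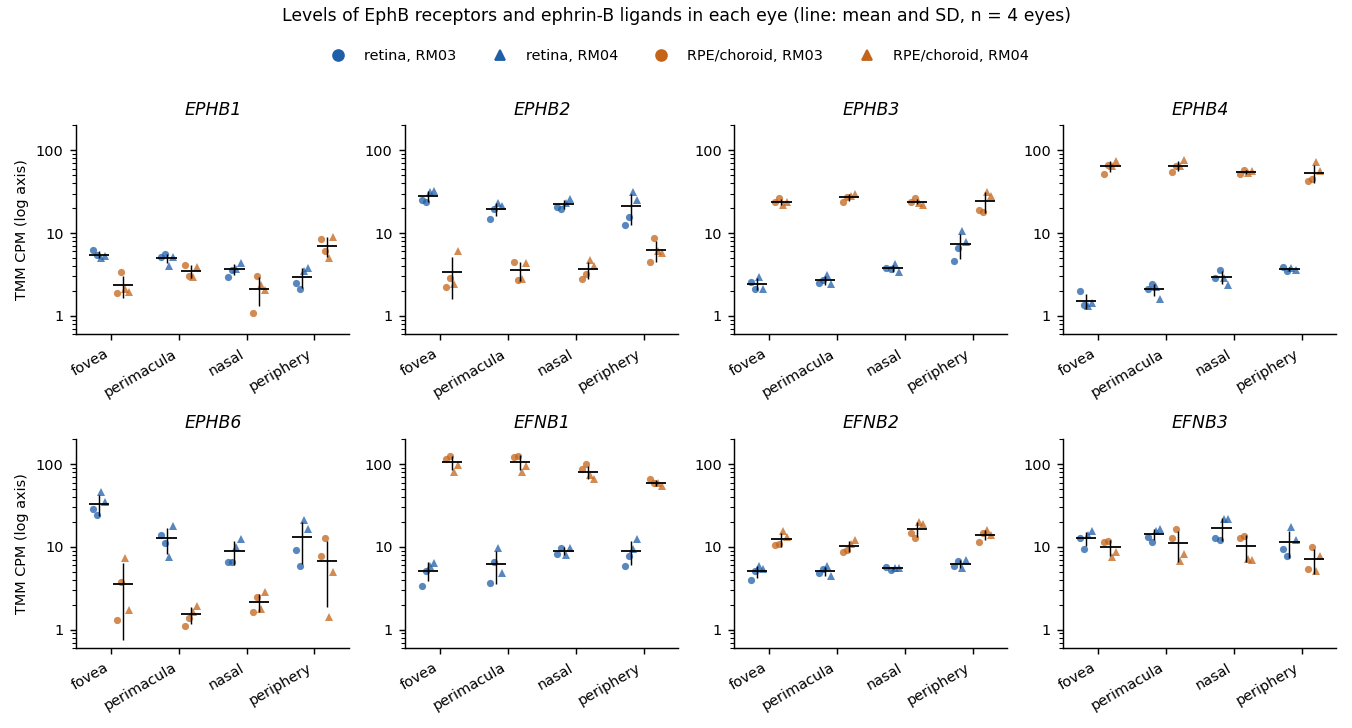
Level of each of the 8 genes (TMM CPM, log axis) at the 4 locations, retina in blue and RPE/choroid in orange, with circles for eyes of RM03, triangles for eyes of RM04, and lines for the mean and SD of 4 eyes. EPHB4 lies between 1.32 and 3.92 CPM in every retina library and between 42.2 and 75.6 in every RPE/choroid library, while the layers cross for EPHB1.

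Between retina and RPE/choroid, 7 of the 8 genes were called at the fovea, where 74.6% of all genes tested were called. The counts were 7 of 8 at the perimacula (75.6% of all genes), 8 of 8 at the nasal location (76.2%) and 7 of 8 at the periphery (74.3%). These shares, 87.5% to 100% of the 8 genes, were not far above the background, whereas the sizes were larger. The median absolute log2 fold change of the 8 genes was 3.19 at the fovea and 1.47 at the periphery, against 0.982 and 0.943 over all genes tested.

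EPHB4, the venous receptor, showed the widest gap. At the fovea it read 1.99, 1.34, 1.32 and 1.43 CPM in retina and 52.3, 67.5, 64.4 and 74 CPM in RPE/choroid. The layers did not overlap at any location. Retina was lower by 41.2-fold at the fovea (log2 fold change -5.36 ± 0.195 SE, edgeR adjusted p = 2.63e-15), with smaller gaps of 30.2-fold at the perimacula, 18.7-fold nasally and 14.5-fold at the periphery.

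EFNB1, a ligand of the EphB receptors, followed the same order. Foveal retina held 3.36, 5.07, 5.9 and 6.36 CPM and foveal RPE/choroid 117, 127, 79.5 and 98.7. Retina was lower by 19.9-fold at the fovea (-4.32 ± 0.297 SE, edgeR adjusted p = 4.69e-11) and by 6.79-fold at the periphery. EPHB3, a receptor of the same class, was lower in retina by 9.59-fold at the fovea (-3.26 ± 0.193 SE) and by 3.3-fold at the periphery (-1.72 ± 0.179 SE). EFNB2, the arterial ligand, was lower in retina by 1.94-fold at the perimacula to 2.97-fold at the nasal location.

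EPHB2 was the receptor with the clearest excess in retina. At the fovea it read 24.8, 23.9, 31.5 and 32.3 CPM in retina against 2.25, 2.83, 2.4 and 6.08 in RPE/choroid, and every retina library at any location lay above every RPE/choroid library. Retina was higher by 8.68-fold at the fovea (3.12 ± 0.293 SE, edgeR adjusted p = 6.01e-09), 5.47-fold at the perimacula, 6.14-fold nasally and 3.22-fold at the periphery. EPHB6 was higher in retina by 9.72-fold at the fovea (3.28 ± 0.583 SE) and 8.58-fold at the perimacula, and at the periphery its difference of 0.835 ± 0.555 SE was not called (edgeR adjusted p = 0.18). Without the left eye of RM03 it was called (1.61, adjusted p = 0.0399). Without the 3 libraries rich in Schwann cell markers, the peripheral difference of EPHB6 was 2.26 (edgeR adjusted p = 0.00359, in a range of 0.00359 to 0.639 over the alternatives).

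EPHB1, a receptor known from the ganglion cell axons that stay on their own side at the optic chiasm, was the gene whose layers crossed. Foveal retina held 6.3, 5.4, 5.06 and 5.3 CPM and foveal RPE/choroid 1.91, 3.37, 2.09 and 1.96, so the retina was higher by 2.44-fold (1.29 ± 0.235 SE, edgeR adjusted p = 5.15e-05). Peripheral retina held 2.52, 2.13, 3.46 and 3.78 CPM and peripheral RPE/choroid 8.42, 6, 4.98 and 8.91, so the retina was lower by 2.38-fold (-1.25 ± 0.232 SE, edgeR adjusted p = 6.63e-05). The groups did not overlap at either location. The perimacular excess in retina of 0.52 ± 0.23 SE was close to the threshold (edgeR adjusted p = 0.0466, in a range of 0.0148 to 0.164 over the alternatives). Counting the fit reported here, it was called in 7 of 16 settings, and it was lost when any of the 4 eyes was left out. At the nasal location the excess was 0.77 ± 0.255 SE (edgeR adjusted p = 0.00805), and it was lost without the left eye of RM04 (0.67, adjusted p = 0.0731, the highest of its alternatives, whose lowest was 0.00247).

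EFNB3, a ligand with neural expression in many tissues, differed by 0.42 ± 0.287 SE at the fovea and 0.38 ± 0.287 SE at the perimacula, and neither was called, although both were when the left eye of RM03 was left out (0.67, adjusted p = 0.0367, and 0.72, adjusted p = 0.0258, the lowest of their alternatives, whose highest were 0.509 and 0.653). It was called higher in retina nasally (0.77 ± 0.309 SE, edgeR adjusted p = 0.0273) and at the periphery (0.73 ± 0.288 SE, edgeR adjusted p = 0.0285). Both calls were lost with the compared groups fitted alone, without the right and without the left eye of RM04, and the peripheral call also without the right eye of RM03. The ranges over the alternatives were 0.00319 to 0.247 and 0.00253 to 0.31 in adjusted p.

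**Figure D2:**
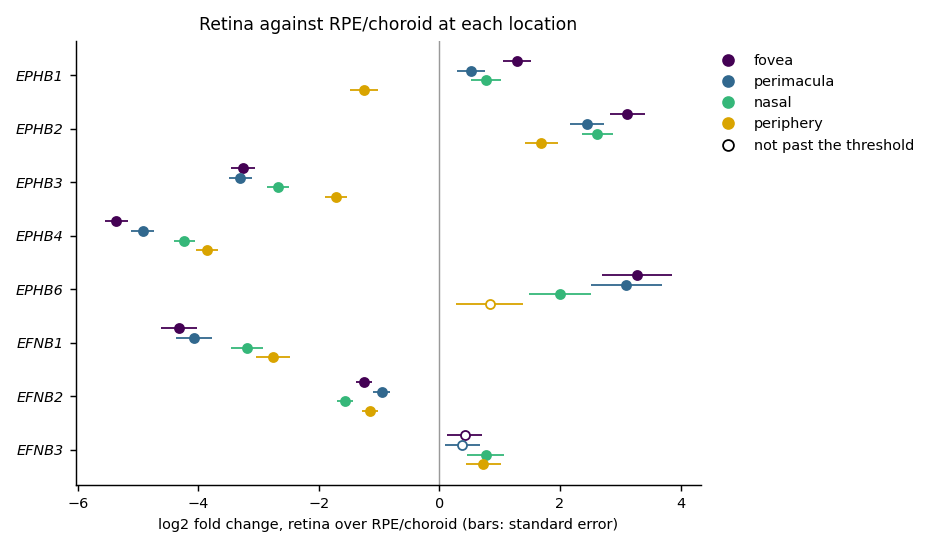
Log2 fold change of retina over RPE/choroid for each gene at the 4 locations, with SE bars, filled where the edgeR adjusted p was under 0.05. EPHB4 lies between -5.36 and -3.86 and EPHB2 between 1.69 and 3.12, while EPHB1 runs from 1.29 at the fovea to -1.25 at the periphery.

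Within the retina, the receptors split by location. Between fovea and periphery, 6 of the 8 genes were called, against 67.0% of all genes tested: EPHB1, EPHB2 and EPHB6 were higher at the fovea, and EPHB3, EPHB4 and EFNB1 were higher at the periphery. The share of 75% lay near the background. EFNB2 and EFNB3 were not called, EFNB3 being called only when the right eye of RM04 was left out (0.42, adjusted p = 0.0325, the lowest of its alternatives, whose highest was 0.489). The median absolute log2 fold change of the 8 genes was 0.834, against 0.579 over all genes. The cellular makeup of the punches moved with location too. The 11 ganglion cell genes summed to 10500 to 12400 CPM at the fovea and 594 to 1280 at the periphery, and the 8 rod genes to 3660 to 4270 and 21800 to 24500 CPM. In such bulk samples, fewer cells of a type and less RNA per cell cannot be told apart, and the part of cell makeup in the changes below was not tested.

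EPHB6 was the fovea-enriched receptor with the largest change. It read 28.5, 24.2, 46.2 and 34.8 CPM at the fovea, 13.9, 11.3, 7.48 and 18 at the perimacula, 6.53, 6.65, 10 and 12.6 nasally and 9.19, 5.87, 21.1 and 16.6 at the periphery. Every foveal library lay above every library of the other 3 locations, whose ranges overlapped. The foveal level was higher by 2.76-fold over the periphery (1.47 ± 0.31 SE, edgeR adjusted p = 0.00122), by 3.88-fold over the nasal location (1.96 ± 0.283 SE, edgeR adjusted p = 4.17e-05) and by 1.39 ± 0.311 SE on the log2 scale over the perimacula (edgeR adjusted p = 0.00486). The last 2 contrasts compare libraries that ran on the same flow cells.

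EPHB6 was also the gene with the least steady lanes in retina. Between lanes of the same 5-lane retina library, its estimated counts varied with a median ratio of 17.2 to the variance that counting error gives. That value was reached by 1.87% of genes, against a median of 1.52 over all genes and 0.886 to 2.05 for the other 7 genes. The peripheral libraries, with 2 lanes each, were left out of these ratios. Their EPHB6 lanes in retina read 9.89 and 8.73, 2.08 and 9.65, 20.8 and 23.6, and 20.2 and 16 CPM, in the order of eyes given above. In the right perimacular retina of RM03, the 5 lanes read 21, 22.5, 9.33, 3.68 and 9.55 CPM. In RPE/choroid the median ratio of EPHB6 was 1.65, which 34.7% of genes reached and which lay below those of EPHB2 (2.29) and EFNB1 (1.78). Its most uneven lanes there include those of the right fovea of RM04, which read 13.9, 8.53, 1.54, 6.7 and 3.06 CPM. The cause was not tested. With the highest and the lowest lane of each 5-lane library left out, a choice made after seeing the data, the retina means in plain CPM were 34.5 at the fovea, 12.3 at the perimacula and 9.49 nasally, against 34.6, 13 and 9.27 with all lanes.

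**Figure D3:**
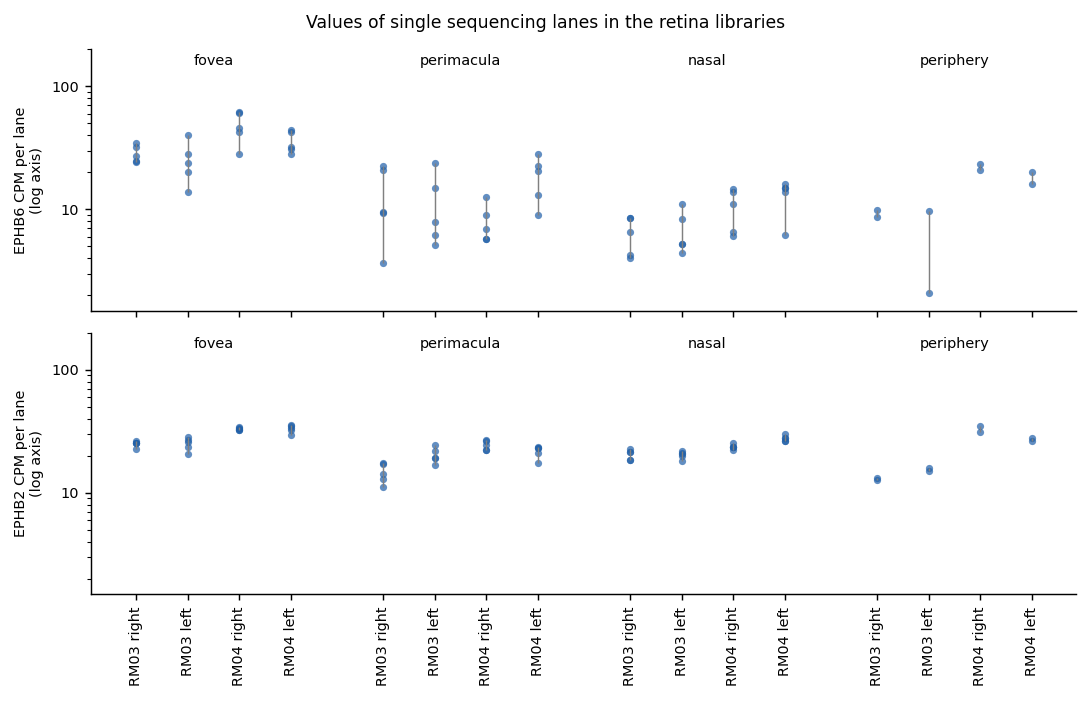
CPM of EPHB6 (top) and EPHB2 (bottom) in each sequencing lane of the 16 retina libraries, on a log axis, with a vertical line from the lowest to the highest lane of a library. In the 12 libraries with 5 lanes, EPHB6 spreads up to 6.12-fold between lanes and EPHB2 up to 1.57-fold.

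EPHB1 fell stepwise in its means from 5.51 ± 0.541 CPM at the fovea to 4.96 ± 0.64 at the perimacula, 3.66 ± 0.584 nasally and 2.97 ± 0.777 at the periphery (SD, n = 4 eyes). Neighbours in this order overlapped, whereas fovea and periphery did not, and all 4 eyes were higher at the fovea. The foveal level was 1.93-fold that of the periphery (0.95 ± 0.189 SE, edgeR adjusted p = 0.000779). It also exceeded the nasal level by 0.64 ± 0.176 SE (edgeR adjusted p = 0.00699), a call lost without the right eye of RM03 (0.53, adjusted p = 0.0622, the highest of its alternatives, whose lowest was 0.000849).

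EPHB2 read 28.1 ± 4.39 CPM at the fovea, 19.6 ± 3.48 at the perimacula, 22.3 ± 2.93 nasally and 21.1 ± 8.66 at the periphery. Peripheral retina held 12.7, 15.5, 31.5 and 24.9 CPM, so the eyes of RM04 overlapped the foveal range and those of RM03 did not. The foveal excess over the periphery was 0.52 ± 0.153 SE (edgeR adjusted p = 0.00958) and was lost without the monkey as a covariate and without the right eye of RM03, with adjusted p from 0.00168 to 0.13 over the alternatives. Over the perimacula it was 0.57 (edgeR adjusted p = 0.0125), with 35.2% of all genes called in that comparison, in which EPHB2 and EPHB6 were the 2 of 8 called here. This call was lost without the monkey as a covariate, without the right eye of RM03 and without the left eye of RM04 (adjusted p from 7e-05 to 0.119).

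EPHB3 ran in the opposite direction. It read 2.56, 2.14, 2.95 and 2.11 CPM at the fovea, 3.78, 3.66, 4.24 and 3.37 nasally and 4.55, 6.57, 10.5 and 7.85 at the periphery. Fovea, nasal location and periphery did not overlap, and perimacula and fovea did. The periphery was higher than the fovea by 2.85-fold (-1.51 ± 0.203 SE, edgeR adjusted p = 3.7e-05), and higher than the nasal location (nasal over periphery -0.93 ± 0.191 SE, edgeR adjusted p = 0.00102). The nasal location exceeded the fovea by 1.51-fold (-0.59 ± 0.194 SE, edgeR adjusted p = 0.019), a call lost without the left eye of RM03 (adjusted p = 0.103, the highest of its alternatives, whose lowest was 0.00889).

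EPHB4 in retina rose from 1.52 ± 0.317 CPM at the fovea to 2.1 ± 0.346 at the perimacula, 2.93 ± 0.515 nasally and 3.7 ± 0.204 at the periphery (SD, n = 4 eyes). Every peripheral library lay above every foveal one, and fovea and nasal location did not overlap either. The periphery was 2.36-fold above the fovea (-1.24 ± 0.162 SE, edgeR adjusted p = 2.94e-05) and the nasal location 1.88-fold above it (-0.91 ± 0.161 SE, edgeR adjusted p = 0.000255). These are low levels, from 77 to 312 estimated counts per library.

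EFNB1 in retina read 3.36, 5.07, 5.9 and 6.36 CPM at the fovea and 5.87, 7.84, 9.46 and 12.4 at the periphery. The groups overlapped, yet each eye was higher at the periphery than at its own fovea, with log2 differences of fovea minus periphery from -0.583 to -0.915 (0.5 CPM added). The fit gave -0.72 ± 0.237 SE (edgeR adjusted p = 0.0182), which was lost without the monkey as a covariate and without either eye of RM04 (adjusted p from 0.00577 to 0.0613 over the alternatives). The nasal location was higher than the fovea by 1.73-fold (-0.79 ± 0.242 SE, edgeR adjusted p = 0.013), which was lost without the right eye of RM03 (adjusted p = 0.0561, the highest of its alternatives, whose lowest was 0.00324).

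Against the nasal location, 5 of 8 genes were called from the fovea (EPHB6 and EPHB1 higher, EPHB4, EFNB1 and EPHB3 lower), where 52.2% of all genes were called. Perimacula and periphery differed in 3 of 8 genes (50.3% of all genes), with EPHB1 higher at the perimacula and EPHB3 and EPHB4 higher at the periphery. Nasal location and periphery differed in 2 of 8 (48.7%), with EFNB3 higher and EPHB3 lower nasally. The EFNB3 call (0.56 ± 0.141 SE, edgeR adjusted p = 0.00416) was lost without the covariate and without the left eye of RM04 (adjusted p from 0.00034 to 0.0995). Perimacula and nasal location differed in 0 of 8 by edgeR, where 1.49% of all genes were called. An unadjusted edgeR p under 0.05 was found for 4 of the 8, and for 2569 of the 15486 genes tested. DESeq2 also called 0 there.

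Markers of the RPE and of Müller glia moved with the genes that rose toward the retinal periphery. The 5 RPE genes summed to 211 to 311 CPM in foveal and 675 to 1200 CPM in peripheral retina, which is 1.71% to 2.51% and 5.57% to 9.94% of the median RPE/choroid sum at the same location. The 4 Müller glia genes summed to 508 to 546 CPM at the fovea and 1880 to 2570 at the periphery, though RPE/choroid libraries held 461 to 3270 CPM of the same 4 genes. Their part in the rise of EPHB3, EPHB4 and EFNB1 was not tested.

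In RPE/choroid, 3 of the 8 genes were called between fovea and periphery, against 44.1% of all genes tested. EFNB1 was higher at the fovea, and EPHB1 and EPHB2 were higher at the periphery. The other 5 were not called.

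EFNB1 was the ligand with a graded level in RPE/choroid. It read 117, 127, 79.5 and 98.7 CPM at the fovea, 123, 124, 79.9 and 95.1 at the perimacula, 86.9, 99.3, 73.2 and 67 nasally and 66.5, 59.7, 59.7 and 54.2 at the periphery. Foveal and perimacular values matched in their mean of 106 CPM, and every peripheral library lay below every library of the other 3 locations. The fovea exceeded the periphery by 1.72-fold (0.79 ± 0.105 SE, edgeR adjusted p = 0.000174), in all 4 eyes. The perimacula exceeded it by 0.78 (edgeR adjusted p = 0.000273) and the nasal location by 0.42 (edgeR adjusted p = 0.00271). The last call was lost without the monkey as a covariate and without the 3 libraries rich in Schwann cell markers (0.29, adjusted p = 0.0555, the highest of its alternatives, whose lowest was 0.000221). Over the same step, the sum of 9 endothelial genes went from 1860 to 2840 CPM at the fovea to 1090 to 1430 at the periphery, and that of 5 smooth muscle and pericyte genes from 5290 to 8250 to 850 to 2060. Their part in the fall of EFNB1 was not tested.

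EPHB1 rose the other way. Its levels of 1.91, 3.37, 2.09 and 1.96 CPM at the fovea and 8.42, 6, 4.98 and 8.91 at the periphery did not overlap, and the periphery lay above the other 3 locations as well. The periphery was higher by 3.08-fold than the fovea (-1.62 ± 0.257 SE, edgeR adjusted p = 0.000531), by 3.33-fold than the nasal location (-1.73 ± 0.306 SE, edgeR adjusted p = 0.000398) and by 2.04-fold than the perimacula (-1.03 ± 0.251 SE, edgeR adjusted p = 0.0091). The values fall low, with 46 to 652 estimated counts per library. The rise from fovea to periphery was called under every alternative run, including the one without the 3 libraries rich in Schwann cell markers. The rise from perimacula to periphery was lost without the left eye of RM04 (-0.94, adjusted p = 0.0505, the highest of its alternatives, whose lowest was 0.00075).

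For EPHB2 and EPHB6, the calls at the RPE/choroid periphery changed with the libraries kept and with the settings of the fit. EPHB2 read 2.25, 2.83, 2.4 and 6.08 CPM at the fovea and 4.49, 8.68, 6.14 and 5.8 at the periphery, with overlap and with 3 of 4 eyes higher at the periphery (-0.92 ± 0.343 SE, edgeR adjusted p = 0.0485). Counting the fit reported here, this call was held in 6 of 14 settings. With all libraries kept, it was lost with RLE normalization (adjusted p = 0.053), without the covariate (0.0643), without the filter on low counts (0.0561) and with the compared groups fitted alone (0.0829). It was also lost without either eye of RM03, without the right eye of RM04 and without the 3 Schwann-rich libraries (-0.57, adjusted p = 0.271, the highest over the alternatives, whose lowest was 0.0141). EPHB6 read 7.75, 13, 1.43 and 4.94 CPM at the periphery and 1.1, 1.4, 1.64 and 1.96 at the perimacula. The lanes of the highest of these libraries, the left periphery of RM03, both read 12.8 CPM.

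For EPHB6, perimacula over periphery gave -2.13 ± 0.699 SE (edgeR adjusted p = 0.0359) and nasal location over periphery -1.63 ± 0.611 SE (edgeR adjusted p = 0.0427). Without the 3 libraries rich in Schwann cell markers these were -0.73 (adjusted p = 0.502) and -0.29 (adjusted p = 0.751), the highest over the alternatives, whose lowest were 0.00212 and 0.0103. Only the eyes of RM04 remain at the periphery in that setting. Both calls were also lost with the eye as a replicate block (adjusted p = 0.0507 and 0.0524), without either eye of RM03 and without the left eye of RM04, and the nasal one with the compared groups fitted alone (0.0807). Between fovea and periphery the difference of EPHB6 was -0.89 ± 0.687 SE and was not called (edgeR adjusted p = 0.317). It was called without the right eye of RM04, whose fovea read 7.43 CPM (-1.9, adjusted p = 0.0228, the lowest of its alternatives, whose highest was 0.746). Over the alternatives its log2 fold change ran from -1.9 to 0.425, so even its sign depended on the libraries and settings.

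**Figure D4:**
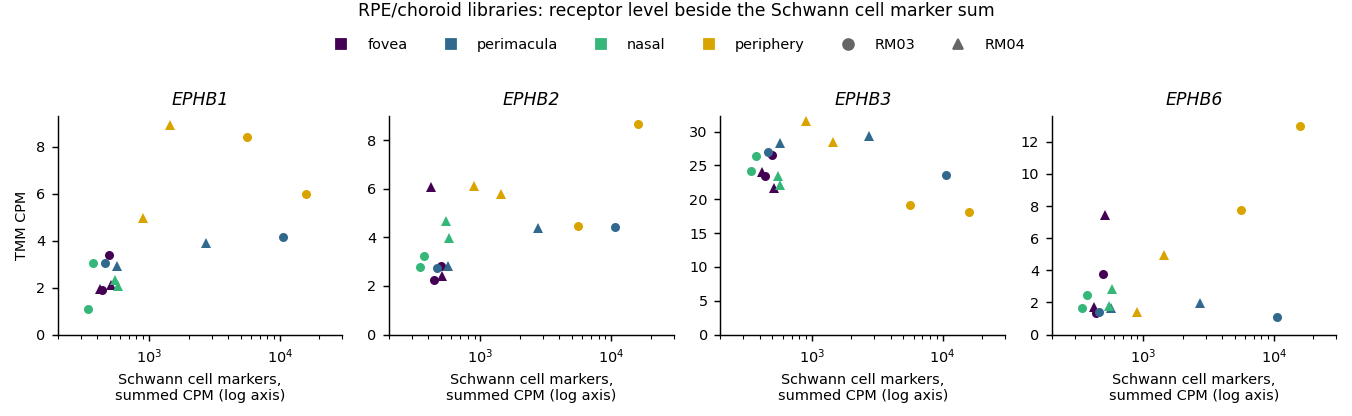
Level of 4 receptors (TMM CPM) in the 16 RPE/choroid libraries against the summed CPM of 5 Schwann cell genes (log axis), coloured by location, with circles for RM03 and triangles for RM04. The left periphery of RM03, at a sum of 15900, has the highest EPHB2 (8.68) and EPHB6 (13) and the lowest EPHB3 (18.1) of the 16 libraries.

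EPHB3 and EPHB4 showed no called difference between locations in RPE/choroid. EPHB3 read 23.9 ± 1.97 CPM at the fovea, 27.1 ± 2.51 at the perimacula, 24 ± 1.79 nasally and 24.3 ± 6.72 at the periphery (SD, n = 4 eyes), and the change from fovea to periphery was 0.0019 ± 0.148 SE. The peripheral eyes were split by animal, at 19.1 and 18.1 CPM in RM03 and 31.6 and 28.4 in RM04, and without the 3 Schwann-rich libraries EPHB3 was higher at the periphery (-0.36, edgeR adjusted p = 0.0337, in a range of 0.0337 to 0.999 over the alternatives). Without those libraries EPHB3 was also higher at the periphery than nasally (-0.35, edgeR adjusted p = 0.0131, in a range of 0.0131 to 1 over the alternatives). EPHB4 read 64.6 ± 9.13, 65 ± 8.5, 54.8 ± 2.51 and 54 ± 13.4 CPM at the same 4 locations, and its foveal excess over the periphery of 0.27 ± 0.122 SE was not called (edgeR adjusted p = 0.0996). Without the right eye of RM04 it was (0.42, adjusted p = 0.0255, the lowest of its alternatives, whose highest was 0.702).

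EFNB2 differed between perimacula and nasal location in RPE/choroid, where few genes did. It read 8.79, 9.06, 10.8 and 12 CPM at the perimacula and 14.6, 12.8, 19.9 and 19.1 at the nasal location. The groups did not overlap and all 4 eyes were higher at the nasal location, with log2 differences of perimacula minus nasal from -0.475 to -0.853 (0.5 CPM added). The fit gave -0.70 ± 0.107 SE (edgeR adjusted p = 0.00562), the only call among the 8 genes with these settings, where 3.07% of all genes were called. EFNB1, not called in the fit reported here, was called there in 5 of 15 settings with that fit counted, DESeq2 among the 5 (adjusted p = 0.0154, in a range of 0.0154 to 0.374). Of 4 melanocyte genes, 3 were called in the same comparison, all higher at the perimacula, and their part was not tested. It was lost without the monkey as a covariate and without the right eye of RM03 and without either eye of RM04 (adjusted p from 5.05e-07 to 0.0954 over the alternatives). EFNB2 was also lower at the perimacula than at the periphery (-0.48 ± 0.115 SE, edgeR adjusted p = 0.00779), and without the 3 Schwann-rich libraries the value was -0.39 (adjusted p = 0.0778, the highest of its alternatives, whose lowest was 0.000916). That call was also lost without the covariate and without the right eye of RM04.

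Between fovea and perimacula of RPE/choroid, 0 of the 8 genes were called by edgeR and by DESeq2, as against 0.0447% of all genes by edgeR. The unadjusted edgeR p was under 0.05 for 2 of the 8, and for 1678 of the 15674 genes tested. Between fovea and nasal location, edgeR called 0 of 8 (0.361% of all genes), and DESeq2 called 2, EFNB1 and EFNB2. The unadjusted edgeR p was under 0.05 for 2 of the 8 there, and for 2449 of the 15789 genes tested. The other comparisons with the periphery gave 4 of 8 calls from the perimacula (34.9% of all genes) and 4 of 8 from the nasal location (44.6%). In the latter EPHB2 was higher at the periphery (-0.81 ± 0.312 SE, edgeR adjusted p = 0.0477), which was lost without either eye of RM03, without the left eye of RM04, without the 3 Schwann-rich libraries, without the covariate (0.0799), without the filter on low counts (0.0543) and with the eye as a block (adjusted p from 0.027 to 0.324). With that block, 2 of 8 were called there. EFNB2, not called there with all libraries, was higher nasally without the 3 Schwann-rich ones (0.36, edgeR adjusted p = 0.039, in a range of 0.0201 to 0.433 over the alternatives).

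**Figure D5:**
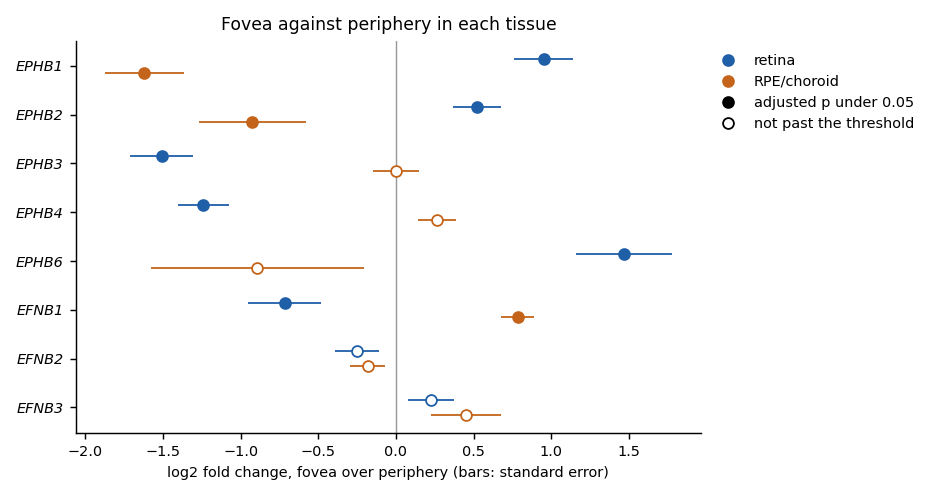
Log2 fold change of fovea over periphery for each gene in retina (blue) and RPE/choroid (orange), with SE bars, filled where the edgeR adjusted p was under 0.05. EPHB1, EPHB2 and EFNB1 are called in both layers with opposite signs, at 0.95 and -1.62, 0.52 and -0.92, and -0.72 and 0.79.

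The change from fovea to periphery differed between the layers for 6 of the 8 genes, in a test of the difference itself (the tissue by location interaction), against 40.2% of all genes tested. The foveal excess in retina was greater than that in RPE/choroid for EPHB1 by 2.54 ± 0.33 SE (edgeR adjusted p = 5.92e-06), for EPHB6 by 2.45 ± 0.783 SE (edgeR adjusted p = 0.0172) and for EPHB2 by 1.43 ± 0.386 SE (edgeR adjusted p = 0.00579). It was smaller for EFNB1 (-1.55 ± 0.37 SE, edgeR adjusted p = 0.00229), EPHB3 (-1.54 ± 0.252 SE, edgeR adjusted p = 7.33e-05) and EPHB4 (-1.51 ± 0.235 SE, edgeR adjusted p = 4.32e-05). EFNB2 (-0.099 ± 0.195 SE) and EFNB3 (-0.31 ± 0.403 SE) were not called. The EPHB6 difference was lost without either eye of RM03, without the left eye of RM04 and without the 3 Schwann-rich libraries (1.04, adjusted p = 0.274, the highest of its alternatives, whose lowest was 0.000992), and that of EPHB2 without the left eye of RM03 (1.14, adjusted p = 0.0629, its highest, whose lowest was 0.00129).

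Away from the flow cell of the periphery, fovea against nasal location differed between the layers for EPHB4 (-1.19 ± 0.227 SE, edgeR adjusted p = 0.000386) and EFNB1 (-1.16 ± 0.343 SE, edgeR adjusted p = 0.0146), 2 of 8 genes against 23.5% of all genes. The EFNB1 value was lost without the left eye of RM03 and without the left eye of RM04 (adjusted p from 0.00576 to 0.0878 over the alternatives). For fovea against perimacula 0 of 8 differed by edgeR and by DESeq2, against 11.5% of all genes by edgeR. The unadjusted edgeR p was under 0.05 for 1 of the 8, and for 4273 of the 16284 genes tested.

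As a description, the values of ligand and receptors were set beside each other across the apposed layers. A membrane-bound ligand meets its receptor only on a touching cell, and whether the cells that carry these partners touch across the layers was not tested. At the periphery relative to the fovea, the ligand EFNB1 was higher in retina (5.17 ± 1.32 to 8.9 ± 2.78 CPM) while the receptors EPHB1 (2.33 ± 0.693 to 7.08 ± 1.89 CPM) and EPHB2 (3.39 ± 1.81 to 6.28 ± 1.75 CPM) were higher in the RPE/choroid beneath. EPHB3, EPHB4 and EPHB6 were not called between these locations in RPE/choroid. Counting the fit reported here, the EFNB1 call in retina held in 10 of 13 settings, and the EPHB2 call in RPE/choroid in 6 of 14. Peripheral retina held 5.57% to 9.94% of the median RPE marker sum of peripheral RPE/choroid, where the mean of EFNB1 was 60 CPM. The part of RPE/choroid material in the EFNB1 of peripheral retina was not tested. At the fovea relative to the periphery, EFNB1 was higher in RPE/choroid (60 ± 5.01 to 106 ± 20.9 CPM) while, in the retina above, EPHB1, EPHB2 and EPHB6 were higher and EPHB3 and EPHB4 were lower. Within a layer, EFNB1 moved opposite to EPHB1 and EPHB2 between fovea and periphery, in retina and in RPE/choroid. In retina it also moved opposite to EPHB6, whereas EPHB3 and EPHB4 rose toward the periphery together with EFNB1. The receptors thus had no common direction relative to EFNB1. These are RNA levels of whole punches, in which the cells that carry either partner are not resolved.

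The monkeys differed for some of the genes, with 2 animals and so no test. The share of all genes that separate the monkeys in this way was not counted, so the counts below do not set these genes apart. In retina, both eyes of RM04 lay above both eyes of RM03 at 4 of 4 locations for EPHB2 and EFNB3, with mean log2 differences of 0.508 and 0.59. In RPE/choroid, both eyes of RM03 lay above both of RM04 at 3 of 4 locations for EFNB1 and EFNB3, and both eyes of RM04 lay above at 3 of 4 for EFNB2. EFNB3 thus pointed opposite ways in the layers. At the nasal location it read 12.8, 12, 22 and 21.7 CPM in retina and 13, 13.5, 7.13 and 6.97 in RPE/choroid.

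Among 25 partners and effectors of EphB and ephrin-B, 24 were tested. In retina, 13 were called between fovea and periphery, 6 higher at the fovea and 7 at the periphery, against 67.0% of all genes called, with a median log2 fold change of 0.06 over the list and -0.056 over all genes. EPHA4, an EphA receptor that also binds ephrin-Bs, had the largest change, from 110 ± 5.59 CPM at the fovea to 23.5 ± 3.37 at the periphery (2.27 ± 0.207 SE, edgeR adjusted p = 1.59e-06). GRIP1, a scaffold that binds the tail of ephrin-Bs, was also higher at the fovea (0.91 ± 0.114 SE), and VAV3, a guanine nucleotide exchange factor, was higher at the periphery (-0.86 ± 0.0921 SE). In RPE/choroid, 14 of the 24 were called, against 44.1% of all genes, 10 of them higher at the fovea (median log2 fold change 0.28, against -0.06 over all genes). The scaffold GRIP2 was higher at the fovea (2.32 ± 0.425 SE, edgeR adjusted p = 0.00132), as was KALRN, an exchange factor downstream of EphB receptors (0.98 ± 0.144 SE), while GRIP1 was higher at the periphery (-1.26 ± 0.467 SE, edgeR adjusted p = 0.0483).

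Of 8 regulators of the dorsoventral axis of the retina, 7 were called in retina between fovea and periphery, 2 higher at the fovea and 5 at the periphery, against 67.0% of all genes called (median log2 fold change -1.27). ZIC2, which acts upstream of EphB1 in ganglion cells whose axons do not cross, read 0.768 ± 0.496 CPM at the fovea and 4.78 ± 0.741 at the periphery (-2.70 ± 0.397 SE, edgeR adjusted p = 7.64e-05), opposite in direction to EPHB1. ALDH1A3, an enzyme of retinoic acid synthesis (-2.12 ± 0.342 SE), and the ventral factor VAX2 (-1.78 ± 0.351 SE) were higher at the periphery as well. In RPE/choroid, 5 of 6 tested regulators were called, against 44.1% of all genes. ALDH1A3 rose from 67.6 ± 24.8 CPM at the fovea to 552 ± 303 at the periphery (-3.03 ± 0.35 SE). The dorsal factors TBX3 (1.76 ± 0.218 SE) and TBX2 (1.26 ± 0.157 SE) were higher at the fovea. No punch was labelled dorsal or ventral, so these values do not show a dorsoventral pattern.

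Of 10 arterial and venous endothelial genes, 6 were called in RPE/choroid between fovea and periphery, all 6 higher at the fovea, against 44.1% of all genes called (median log2 fold change of the list 0.6). The arterial factor SOX17 fell from 17.3 ± 5.37 to 3.56 ± 1.16 CPM (2.26 ± 0.263 SE, edgeR adjusted p = 7.36e-05), the arterial connexin GJA4 from 83 ± 12.9 to 35 ± 8.04 (1.23 ± 0.148 SE) and the apelin receptor APLNR from 18.3 ± 8.26 to 7.37 ± 2.35 (1.23 ± 0.279 SE). Beside these, EFNB2 and EPHB4, the arterial and venous members of the ephrin system, differed by -0.18 ± 0.115 SE and 0.27 ± 0.122 SE and were not called. In retina, 7 of the 10 were called, 5 higher at the fovea, a share near the 67.0% of all genes. APLNR read 0.652 ± 0.0761 CPM at the fovea and 0.0375 ± 0.0673 at the periphery, GJA5 0.555 ± 0.0826 and 0.208 ± 0.0859, and NOTCH4 2.4 ± 1.14 and 4.77 ± 1.79.

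The genes whose log2 CPM followed each member most closely over the 16 libraries of a tissue were listed as a description, since the libraries share animals, locations and flow cells. In retina, EPHB3 ran most closely with AQP4, the water channel of Müller glia (Pearson r = 0.961), and STAC (0.958). EPHB4 ran with SLC44A2 (0.972) and with HBB, a haemoglobin chain of red blood cells (0.969). EFNB1 ran with VASN and PLXNB2 (both 0.933), EPHB6 with CYB5D2 (0.93) and CUTL1 (0.929), EPHB1 with MLXIPL (0.92) and TMEM151A (0.917), EFNB3 with PCDH11X (0.92) and PDZRN3 (0.913), and EPHB2 with IQSEC2 (0.905) and NRBP2 (0.892). In RPE/choroid, EFNB1 ran with CANT1 (0.968) and LRP3 (0.957), EPHB1 with TTC31 (0.915) and STK11IP (0.898), and EFNB2 with ADGRL4, an endothelial adhesion receptor (0.892), and RPP14 (0.854). EPHB2 (CARNS1 at 0.86, LAD1 at 0.852) and EPHB6 (VPS45 at 0.83, MCUR1 at 0.821) had looser matches there. EFNB2 in retina and EPHB3, EPHB4 and EFNB3 in RPE/choroid had no called location difference, and no matches are given for them.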

How the data were processed

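Poly-A RNA was sequenced as paired reads of 100 bp from samples with a RIN above 6.5. Per the labels and the study's methods, the authors quantified Mmul_8.0.1 transcripts with Salmon 0.13 and used tximport for gene values. The deposited values, headed TPM, are length-scaled estimated counts (expected counts) per lane, in 136 lanes with 19432 entries each, of which 10 repeated an identifier and were dropped. Lanes were summed per library and rounded. The labels name edgeR without a version.

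edgeR 4.0.16 (quasi-likelihood, TMM, filterByExpr at a minimum count of 10, monkey as covariate, Benjamini-Hochberg over all genes) was run under R 4.3.3 with limma 3.58.1. The 3 contiguous locations of a tissue were fitted together, all 4 were fitted for comparisons with the nasal location, and tissue comparisons from a fit of both tissues. Symbols carried by several entries were left out of lists. The comparison of fovea and periphery was also run on simulated data, with 200 genes set beforehand to differ by 1.5 on the log2 scale. The retina fit over 15380 genes recovered 91.5% of these genes, and 2.66% of the genes it called were false calls. The RPE/choroid fit over 15674 genes recovered 71.5%, and 2.72% of the genes it called were false calls. The simulated counts held no animal effect and no other differing genes, unlike the real data, so these rates need not hold there. Recovery of smaller differences, the size of many reported above, was not tested. Other steps used Python with pandas and matplotlib.

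Members, lists, tests and the naming rule were chosen with earlier results of these data known. The rule named the 8 members, up to 3 called genes per pathway list and tissue with the largest change between fovea and periphery, and the 2 genes most correlated with each member called in a tissue. Sequences, transcript lengths and genome positions were not used here. Alternatives were DESeq2 1.42.0, RLE normalization, other filters, an eye block, no covariate, the compared groups alone, nasal libraries included, single flow cells, plain CPM for levels and leaving out each eye; 2 more were added after seeing the data. Replicate numbers pair the samples, since by the labels a number marks the same eye. Over 1000 genes, deviations of the same eye at different locations correlated at 0.561 on average in retina (lowest 0.172). In RPE/choroid the average was 0.387 (lowest 0.177). Fellow eyes correlated about as well, at 0.555 in retina and 0.403 in RPE/choroid, and eyes of different monkeys at -0.559 and -0.395. Deviations were taken from the mean of the eyes at a location, so the negative values follow from the positive ones and add nothing to them. The correlations of same and fellow eyes follow the animal and do not tell an eye from its fellow.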

Additional observations from a re-analysis of the deposited data

Results flagged for a closer look

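In 3 of 64 groups of 4 eyes, a single library lay far from the other 3, measured as its gap to the nearest eye over the range of the group, and chance alone gives about 1 in 20 such groups. EPHB1 in foveal RPE/choroid had a ratio of 0.877, from the left eye of RM03 at 3.37 CPM. EPHB2 in foveal RPE/choroid had 0.849, from the left eye of RM04 at 6.08 CPM. EPHB4 in foveal retina had 0.84, from the right eye of RM03 at 1.99 CPM.

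The change between fovea and periphery differed between retina and RPE/choroid, by the test of the interaction, for EPHB1 (2.54), EPHB6 (2.45), EPHB2 (1.43), EFNB1 (-1.55), EPHB3 (-1.54) and EPHB4 (-1.51), each a difference of log2 fold changes. The change between fovea and nasal location differed for EFNB1 (-1.16) and EPHB4 (-1.19). For EPHB1, all 4 eyes were higher at the fovea in retina and all 4 were higher at the periphery in RPE/choroid.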

How the results depend on the processing

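Of the 8 genes, the count called in retina between fovea and perimacula was 1 without the monkey as a covariate and 1 to 2 with an eye left out, against 2. Between nasal location and periphery of retina it was 1 without the covariate and 1 to 3 with an eye left out, against 2. In RPE/choroid between fovea and nasal location it was 2 with DESeq2 and 1 with either flow cell alone, against 0. Between perimacula and nasal location of RPE/choroid it was 2 with DESeq2, with at least 10 counts in every library, with either flow cell alone and with the compared groups alone, 0 without the covariate, and 0 to 1 with an eye left out, against 1. Between perimacula and periphery of RPE/choroid it was 2 without the 3 Schwann-rich libraries and 2 to 4 with an eye left out, against 4. The interaction for fovea against nasal location gave 1 to 3 calls with an eye left out, against 2, and that for fovea against perimacula 1 with flow cell HLKMNBBXX alone, against 0. EPHB3 in RPE/choroid between fovea and periphery went from no difference (0.0019 ± 0.148 SE) to -0.36 without the 3 Schwann-rich libraries, which leaves 2 eyes of RM04 at the periphery.

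With the eye as a replicate block, the count between nasal location and periphery of RPE/choroid was 2, as it was without the covariate, and 2 to 4 with an eye left out, against 4. The calls lost under this pairing were EPHB2 (adjusted p = 0.0585) and EPHB6 (0.0524), and EPHB6 between perimacula and periphery of RPE/choroid (0.0507). The block added EFNB3 in that last comparison (0.0418), EFNB1 between perimacula and periphery of retina (0.0442) and EFNB3 between fovea and nasal location of retina (0.0474). It changed no other call among the 8 genes. RLE normalization ended the calls of EPHB2 between fovea and periphery of RPE/choroid (0.053) and of EPHB1 between the layers at the perimacula (0.0501), and added EPHB2 between fovea and nasal location of retina (0.0407). Of the 64 group means, 3 moved by more than 1 SD with plain CPM, and 0 with RLE or with an eye left out. EPHB6 in nasal RPE/choroid was 1.46 CPM without its extreme lanes, against 2 with all lanes on that scale and 2.18 with TMM.

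The periphery was sequenced on its own flow cell, and 2 animals do not measure variation among monkeys. Cell types were not separated. Leaving out 1 eye also added calls not named above: without the right eye of RM03, EPHB2 (0.0305) and EFNB3 (0.0382) in fovea against nasal retina, without the left eye of RM03, EPHB4 in nasal against peripheral retina (0.0412) and EFNB2 in nasal against peripheral RPE/choroid (0.0201), without the right eye of RM04, EFNB3 in perimacular against peripheral retina (0.0193), EPHB4 in perimacular against peripheral RPE/choroid (0.0293) and EPHB6 in the interaction for fovea against nasal location (0.0362), and without the left eye of RM04, EFNB3 in nasal against peripheral RPE/choroid (0.0398), all as adjusted p. EPHB4 in retina and EPHB1 and EPHB6 in RPE/choroid rest on under 100 estimated counts in some libraries, which limits small differences there.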
